A study of Mus musculus with 52 samples.

Results

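The Western diet comparison described here was made in male APP/E4 mice, which make up 11 of the 52 libraries of the series and were chosen by the genotype and gender given in the sample labels. Of these males, 5 had received the high-fat Western diet (HFD) and 6 had received normal chow (ND). All of them carried the APP/PS1ΔE9 transgenes, which drive the formation of amyloid plaques, and were homozygous (+/+) for targeted replacement of mouse Apoe by human APOE4. ND was a standard laboratory chow, and HFD was a Western diet with 40% of its calories from milk fat and corn oil, 42.6% from carbohydrate and 16.8% from protein. The labels' protocols give a mean age of 3.5 months when the diets were assigned, a feeding period of 3 months and a mean age of 14.7 months at behavioural testing. The labels do not say how these ages fit together, nor do they give ages of single mice. Messenger RNA of the frontal cortex was sequenced after perfusion of the mice, with 1 library per sample.

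The remaining libraries came from APP/E4 females and from APP/E3 mice, which carry human APOE3 in place of APOE4. Of these, the 14 APP/E4 females (7 HFD, 7 ND) and the 12 APP/E3 males (6 HFD, 6 ND), fed the same diets, were used to ask whether the diet difference of APP/E4 males was distinct. The series' design text names genes of transcription and of cell migration as affected by the diet in APP/E4 males, and lists for both were therefore examined. No label says in so many words that each sample is a separate animal or litter, so p-values refer to the spread between these samples.

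Apolipoprotein E carries cholesterol and phospholipids between brain cells and is made mainly by astrocytes and by activated microglia. The APOE4 form is the main common genetic risk factor for late-onset Alzheimer's disease. Microglia sense plaques through the receptor Trem2 and its adapter Tyrobp, and those that touch plaques take on a characteristic set of genes. Diets rich in saturated fat raise circulating lipids and are studied for their effects on inflammation and on the amyloid burden of such mice.

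Library totals lay between 5.34 and 10.9 M counts, and their means did not separate the diets (9.47 ± 0.827 M in HFD and 9.05 ± 2.08 M in ND, SD, two-sided exact permutation test, p = 0.766, where 0.00433 is the smallest p possible). Levels are given as CPM, the count of a gene scaled to a common library total with TMM factors. At these depths 3 counts in a library corresponded to 0.265 to 0.579 CPM, and levels below that cannot be told from 0 by counting error alone. The labelled sex was checked with Xist, the RNA of the inactive X chromosome, at 0 to 1.86 CPM, and with the Y-linked helicase gene Ddx3y, at 125 to 168 CPM, in all 11 libraries. The table lists mouse genes and has no row for human APOE, so the APOE4 label was not checked.

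Some libraries stood apart from the rest before any comparison of diets. HFD male 3 lay farthest out on the first principal component of log2 CPM, which held 31.8% of the variance over 11723 genes, and ND male 6 lay farthest out on the second, which held 23.7%. The neutrophil genes S100a8, S100a9 and Ngp were at 11.6, 16.6 and 8.71 CPM in HFD male 3 and at no more than 0.973 CPM in any of the other 10 libraries. Summed over 25 striatal markers, the level was 753 CPM in HFD male 3 and 1613 to 5318 CPM in the others. The olfactory sensory neuron gene Omp was at 12, 30.2 and 24.8 CPM in ND males 2, 3 and 6 and at 0.386 to 5.32 CPM in the other 8 libraries. Ngp, Omp and the other genes of these sentences were singled out after their values were seen. Where leaving out HFD male 3 turned the sign of a diet difference described below or moved it by more than 1.5 times, the value without it is given, except for genes named only for the interactions.

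**Figure D1:**
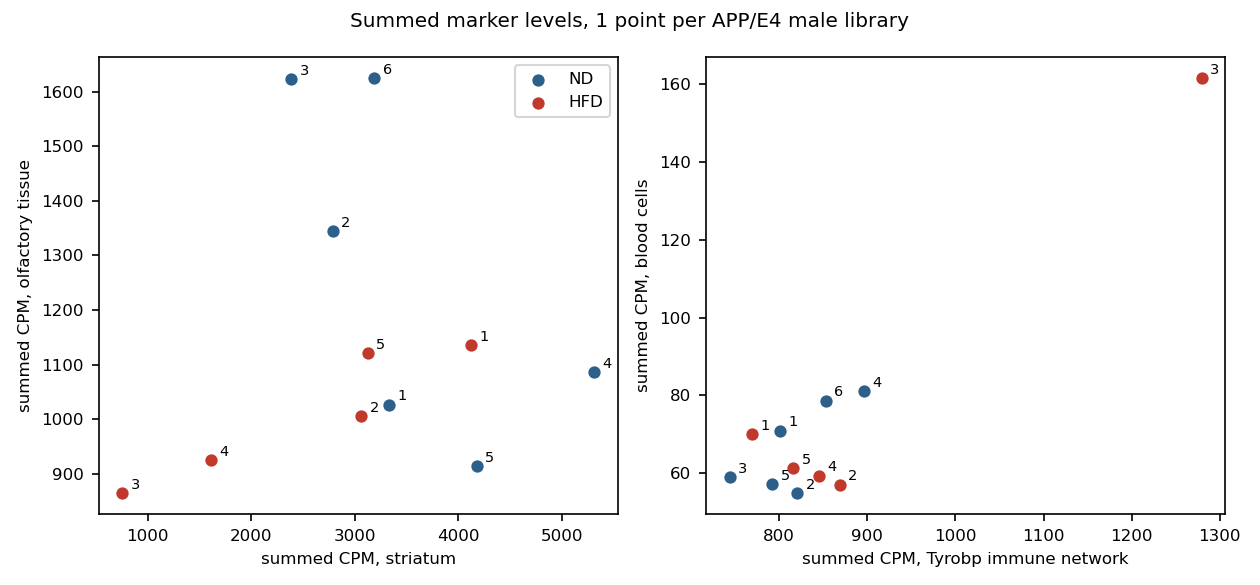
Summed CPM of marker lists in each APP/E4 male library, with ND in blue, HFD in red and the replicate number beside each point. On the left, striatal markers (x) are set against olfactory markers (y), and HFD male 3 has the lowest value of both, 753 and 864 CPM. On the right, the Tyrobp immune network (x) is set against blood cell genes (y), and HFD male 3 alone reaches 1280 and 162 CPM. The most abundant member is Uchl1 in the olfactory list and Bpgm in the blood cell list, so such genes weigh most in these sums.

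No gene was called different between HFD and ND in APP/E4 males. By edgeR's quasi-likelihood test with Benjamini-Hochberg adjustment, 0 of 15195 genes (0%) had an adjusted p under 0.05, and the smallest adjusted p was 0.863. At an unadjusted p under 0.05 there were 555 genes (3.65% of those tested), 266 higher (1.75%) and 289 lower (1.90%) in HFD, where 759.75 would be expected if no gene differed. DESeq2 called 1 gene, the albumin gene Alb, which was at 0 in 10 of the 11 libraries and at 0.0941 CPM, below the level of 3 counts, in ND male 4. A limma voom fit called none. The median SE of a log2 difference was 0.127, so the 95% confidence interval of a typical gene reached 0.255 on the log2 scale to either side of its value. Differences of that order or smaller could not be told from 0 for such a gene. The interval is not adjusted for the number of genes, and a call after adjustment needed a larger difference. The absence of calls therefore does not exclude differences above 0.255. All values below therefore describe genes that did not pass the test, with unadjusted p-values from the same edgeR fit where they are given.

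**Figure D2:**
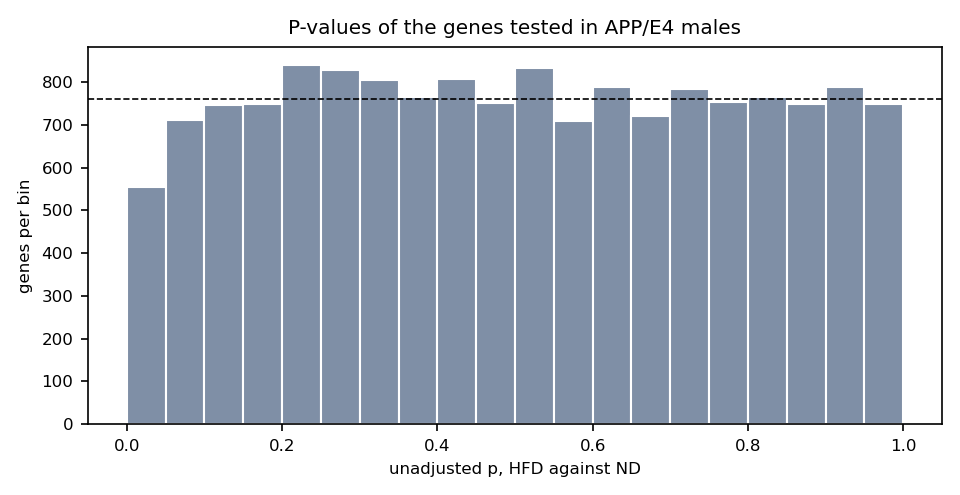
Number of genes (y) in 20 equal bins of the unadjusted p (x) for HFD against ND in APP/E4 males, with the even count per bin as a dashed line. The first bin, with 555 genes, lies below the dashed line at 759.75.

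The smallest p belonged to Slc9b2, which encodes a sodium/proton exchanger. It was at 2.29, 4.71, 6.81, 4.56 and 3.3 CPM in HFD males 1 to 5 and from 1.69 to 2.93 CPM (median 2.2) in the ND males. HFD males 2 to 5 were above every ND male and HFD male 1 was inside their range. The log2 difference was 0.95 ± 0.22 (SE), with an unadjusted p of 5.68e-05 and an adjusted p of 0.863 (edgeR). Without HFD male 1 it was 1.12 with an adjusted p of 0.0477 (edgeR), the only call that leaving out 1 of the 11 libraries gave, and over all alternatives its adjusted p ran from 0.0477 to 1. With HFD male 3 left out it was 0.73 with an unadjusted p of 0.00158 (edgeR).

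Lcn2, which encodes a secreted siderophore-binding protein made by neutrophils and by reactive astrocytes, was second among the genes with higher values in HFD. It was at 1.28, 0.877, 3.57, 1.14 and 1.81 CPM in HFD males 1 to 5 and from 0 to 0.574 CPM (median 0.254) in the ND males. The groups did not overlap, and the ND values were at or near the level of 3 counts. The log2 difference was 2.48 ± 0.69 (SE), with an unadjusted p of 7.25e-04 and an adjusted p of 0.994 (edgeR). Without HFD male 3, which had the highest value, it was 2.05. The neutrophil genes S100a8 and S100a9, subunits of calprotectin, were at 0.114 to 0.354 and 0 to 0.973 CPM in ND and, apart from HFD male 3, at no more than 0.797 and 0.683 CPM in HFD. Their log2 differences of 3.17 and 3.09 became 0.10 and -0.35 without that library.

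Other genes with low unadjusted p and higher values in HFD encode proteins of unrelated kinds. Ptgs2, the inducible prostaglandin synthase also known as COX-2, was at 19.8, 31.2, 60.9, 34.1 and 26.2 CPM in HFD males 1 to 5 and from 12.2 to 27.9 CPM (median 19.6) in the ND males. Its log2 difference was 0.86 ± 0.27 (SE), the value was highest in HFD male 3, and the groups overlapped. Without that library it was 0.56. Ddx31, an RNA helicase, ranged from 6.38 to 8.05 CPM in HFD and 4.05 to 6.63 CPM in ND, a log2 difference of 0.42. Tspan14, a tetraspanin that escorts the protease ADAM10, differed by 0.31, Atxn7, a subunit of the SAGA histone acetyltransferase complex, by 0.35, and the annexin gene Anxa4 by 0.57 (0.35 without HFD male 3) on the log2 scale. Sp100, a component of nuclear bodies that interferon induces, ranged from 2.1 to 5.92 CPM in HFD and 1.35 to 2.92 CPM in ND.

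Among genes with lower values in HFD, Tusc1, a tumour suppressor candidate, had the smallest p. It was at 2.01, 2.08, 2.57, 2.39 and 1.7 CPM in HFD males 1 to 5 and from 1.91 to 5.41 CPM (median 4.23) in the ND males. The HFD males lay close together, and the ND males were spread from inside the HFD range to beyond it. The log2 difference was -0.88 ± 0.23 (SE), with an unadjusted p of 3.55e-04 and an adjusted p of 0.994 (edgeR). Metrn, which encodes the neurotrophic factor meteorin, was at 25.2, 27.3, 27.6, 23.6 and 21.9 CPM in HFD males 1 to 5 and from 25.3 to 42.9 CPM (median 32.8) in the ND males, with a log2 difference of -0.46 ± 0.14 (SE). The ND values of Metrn and Tusc1 were highest in ND males 3 and 6, both libraries with raised olfactory genes. Whether the olfactory signal has a part in these values was not tested, and without HFD male 3 and ND males 2, 3 and 6 the log2 differences were -0.25 for Metrn and -0.63 for Tusc1.

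Kiz, a centrosomal protein gene, was at 14.4, 11.7, 12.6, 11.5 and 12.9 CPM in HFD males 1 to 5 and from 14.1 to 18.8 CPM (median 16.3) in the ND males, so only HFD male 1 reached into the ND range. Srek1ip1, which encodes a splicing factor partner, ranged from 12.1 to 17.1 CPM in HFD and 17 to 20.2 CPM in ND. The log2 differences were -0.37 ± 0.11 (SE) for Kiz and -0.30 ± 0.089 (SE) for Srek1ip1. Cox10, needed to make the heme of cytochrome oxidase, differed by -0.26 and Cryz, a quinone reductase, by -0.28 on the log2 scale. The predicted genes Gm17396 and Gm960, at 1.93 ± 0.316 CPM in HFD and 3.23 ± 0.803 CPM in ND and at 0.840 ± 0.256 CPM in HFD and 1.58 ± 0.398 CPM in ND (SD, n = 5 and 6), had log2 differences of -0.74 and -0.89.

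Separation of the diets in every library was rarer than a low p, as it would be for random diet labels. The HFD and ND values did not overlap for 48 of 15195 genes (0.316%), 21 with every HFD male above (0.138%) and 27 with every HFD male below (0.178%). With random labels, a share of 0.00433 of genes would be expected to separate, the smallest p of the permutation test above. The share seen was no higher. With a mean of at least 5 CPM, 37 of 11723 genes (0.316%) did not overlap. The 5 of these with the highest log2 differences included Helz2, a helicase that acts as a nuclear receptor coactivator and responds to interferon, at 6.77 to 10.6 CPM in HFD and 4.5 to 6.4 CPM in ND. They also included Slfn5, another interferon-responsive gene, at 10.8 to 14.2 CPM in HFD and 7.9 to 9.55 CPM in ND, and Ppp1r3g, a subunit that targets a phosphatase to glycogen, at 7.5 to 13.4 CPM in HFD and 5.36 to 7.44 CPM in ND. The log2 differences were 0.57 ± 0.18 (SE), 0.47 ± 0.16 (SE) and 0.49 ± 0.17 (SE). Galnt7, an enzyme of mucin-type glycosylation, differed by 0.34, and Rims3, a gene of the presynaptic active zone, by 0.33 with an unadjusted p of 0.211 and an adjusted p of 0.994 (edgeR).

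On the lower side, Evpl, which encodes the junctional protein envoplakin, ranged from 5.7 to 7.52 CPM in HFD and 7.61 to 11.9 CPM in ND, with a log2 difference of -0.57 ± 0.20 (SE). Vangl2, a planar cell polarity gene, ranged from 5.03 to 6.15 CPM in HFD and 6.56 to 9.22 CPM in ND, with a log2 difference of -0.53 ± 0.20 (SE). Flywch2 and Myadml2 differed by -0.57 and -0.47. The non-coding or uncharacterised genes B930041F14Rik, at 20.1 to 23.7 CPM in HFD and 23.8 to 32.8 CPM in ND, and C330018D20Rik, at up to 12.03 CPM in HFD and at least 12.04 CPM in ND, had narrow gaps between the groups. The adjusted p of each was 0.994 (edgeR).

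**Figure D3:**
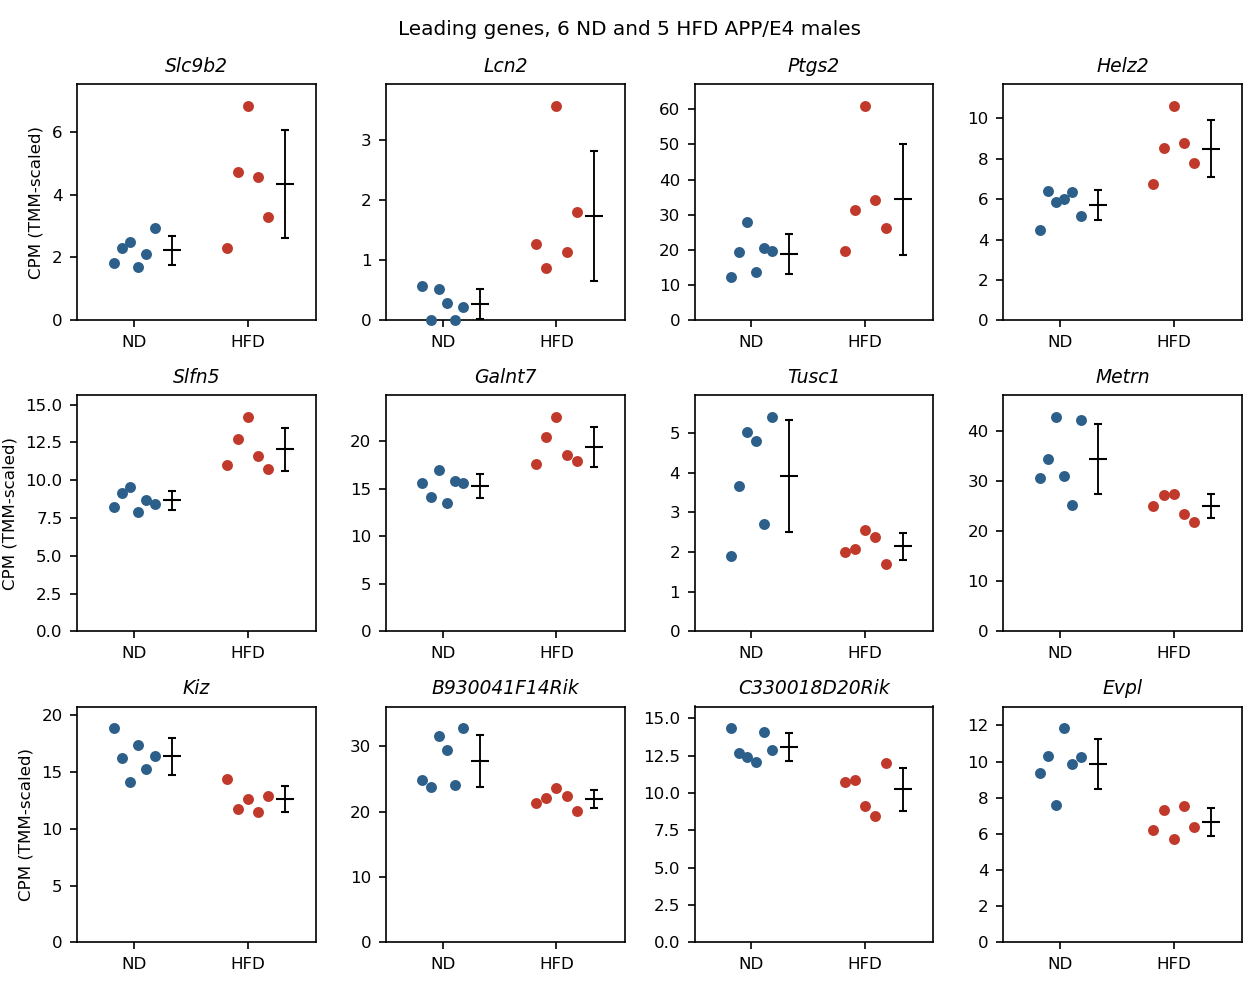
CPM (y, from 0) of 12 leading genes in the 6 ND (blue) and 5 HFD (red) APP/E4 males, 1 point per library, with the mean and SD in black beside each group. The HFD and ND points do not overlap for Lcn2, Helz2, Slfn5, Galnt7, B930041F14Rik, C330018D20Rik and Evpl, and they overlap for Slc9b2, Ptgs2, Tusc1, Metrn and Kiz.

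Most genes of transcription and chromatin had slightly higher values in HFD, by an amount that depended on single libraries. Of 56 members, 45 were higher and 11 lower, with a median log2 difference of 0.043, whereas 49.2% of all genes tested were higher and their median was -0.0023. None of the 56 was called, 3 were higher at an unadjusted p under 0.05 (5.36%, against 3.65% of all genes), and 0 of them separated the diets. Btaf1, an ATPase that removes the TATA-binding protein from promoters, was at 50.9, 51.9, 53.5, 51.4 and 53.4 CPM in HFD males 1 to 5 and from 36.3 to 51.7 CPM (median 42.5) in the ND males. The HFD values were closely grouped and 1 ND male lay among them. The log2 difference was 0.25 ± 0.097 (SE). Smarca2, the ATPase of BAF chromatin remodelling complexes, differed by 0.22, and Tet3, which oxidises 5-methylcytosine, by 0.22. The summed level of the list was 6205 to 7169 CPM in HFD and 5214 to 6976 CPM in ND, and ND male 6 held the lowest value. Without ND male 6 the list's median was -0.016, without HFD male 5 it was 0.0070 and without HFD male 3 it was 0.079. With HFD male 3 and ND males 2, 3 and 6 left out, 36 of the 56 were higher (median 0.040). In APP/E3 males, which share no library with this comparison, 51 of the 56 were higher in HFD (median 0.17), and in APP/E4 females 20 of the 56 were (median -0.031).

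Cell migration genes were also higher in HFD in most cases, by little. Of 58 members tested, 39 were higher in HFD, with a median log2 difference of 0.055, 2 at an unadjusted p under 0.05 (3.45%, against 3.65% of all genes) and none called. The median was 0.031 without HFD male 3 and 0.025 without ND male 6. Itga1, a collagen-binding integrin subunit, ranged from 7.24 to 11.1 CPM in HFD and 4.28 to 7.9 CPM in ND. Col4a1, a basement membrane collagen, ranged from 29.3 to 68 CPM in HFD and 28.6 to 47.7 CPM in ND, and HFD male 3 was highest. The log2 differences were 0.39 ± 0.19 (SE) and 0.36 ± 0.17 (SE), the latter 0.20 without HFD male 3. Rock2, a kinase of the actomyosin cytoskeleton, differed by 0.22 ± 0.11 (SE).

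Microglial and other immune genes were mostly a little higher in HFD, and much of that rested on 1 library. In the Tyrobp immune network, 39 of 50 members were higher, 6 at an unadjusted p under 0.05 (12%, against 3.65% of all genes), with a median log2 difference of 0.15. When HFD male 3 was left out, 28 of the 50 were higher and the median was 0.020. Genes that microglia induce at plaques went from 21 of 32 higher (median 0.091) to 16 of 32 (median -0.0039) without it, and homeostatic microglial genes from 15 of 24 (median 0.082) to 9 of 24 (median -0.029). Blood cell genes, a list that includes S100a8, S100a9 and Lcn2, went from 9 of 11 higher (median 1.15) to 3 of 11 (median -0.17). The summed level of the Tyrobp network was 769 to 1280 CPM in HFD and 744 to 896 CPM in ND, that of plaque-induced genes 2778 to 3350 CPM in HFD and 2567 to 3123 CPM in ND and that of blood cell genes 57.1 to 162 CPM in HFD and 54.9 to 81.1 CPM in ND, with HFD male 3 the highest library in each. The part of blood cell RNA in the immune values was not tested. In bulk tissue a larger number of cells of a type and more RNA per cell cannot be told apart.

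Several single microglial genes were highest in HFD male 3. Cst7, which encodes the cathepsin inhibitor cystatin F, was at 1.28, 2.74, 10.5, 4.78 and 2.66 CPM in HFD males 1 to 5 and from 1.15 to 2.97 CPM (median 1.42) in the ND males. HFD males 3 and 4 were above the ND range and the other HFD males were inside it. The log2 difference was 1.37 ± 0.45 (SE), and 0.75 without HFD male 3. Itgax, the integrin subunit CD11c, was at 0.366, 1.32, 5.47, 2.96 and 2.98 CPM in HFD males 1 to 5 and from 0.789 to 1.63 CPM (median 1.44) in the ND males. HFD males 3, 4 and 5 were above the ND range and HFD male 1 below it, with a log2 difference of 0.96 ± 0.35 (SE), and 0.50 without HFD male 3. The chemokine gene Ccl6 differed by 0.65, and by 0.34 without that library. Cybb, the catalytic subunit of the phagocyte oxidase, depended on it less, at 3.29 CPM in HFD male 2 and 3.35 CPM in HFD male 3, with a log2 difference of 0.85 and of 0.71 without HFD male 3. The inhibitory receptor gene Lilrb4a differed by 1.45 and, without HFD male 3, by 1.28, at no more than 1.37 CPM in any library. Both depended on which libraries were compared. Among males whose sample titles carry a letter for sex, Cybb differed by 1.32 and Lilrb4a by 2.14. Among those whose titles do not, the values were 0.47 and 0.28.

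Ctss, Csf1r and Tyrobp, which are more abundant, had their highest value in HFD male 3, outside the range of the others. The protease gene Ctss was at 167 CPM there and at 79.4 to 105 CPM in the other 10 libraries. Csf1r, the receptor on which microglia depend for survival, was at 192 CPM there and at 116 to 155 CPM in the others. The log2 differences of 0.30 and 0.14 were 0.11 and 0.020 without that library. Tyrobp was at 34.4 CPM there and at 13.4 to 19.6 CPM in the others, and its log2 difference of 0.26 became -0.034 without HFD male 3. Trem2 ranged from 13.5 to 26.3 CPM in HFD and 10.8 to 21.6 CPM in ND, a log2 difference of 0.19 ± 0.16 (SE) that was 0.015 without HFD male 3. The beta2 integrin gene Itgb2 and the complement receptor gene C3ar1 differed by 0.36 and 0.37, with HFD male 3 highest, and by 0.15 and 0.20 without it.

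Interferon response genes were mostly higher in HFD with and without that library. Of 40 members, 32 were higher in HFD, with a median log2 difference of 0.20, and without HFD male 3 the figures were 28 of 40 and 0.14. None was called and 3 had an unadjusted p under 0.05 (7.50%, against 3.65% of all genes). Stat2, a transcription factor of the interferon receptor, was at 28.6, 31, 38.2, 38.2 and 32.9 CPM in HFD males 1 to 5 and from 24.3 to 32.7 CPM (median 28.7) in the ND males, with a log2 difference of 0.23 ± 0.081 (SE). Irf7, a regulator of interferon genes, ranged from 3.08 to 6.07 CPM in HFD and 1.16 to 3.77 CPM in ND. Ifi44, an interferon-induced gene, ranged from 0.915 to 2.45 and 0.579 to 1.53 CPM, so both groups overlapped. The list's median was 0.18 in APP/E4 females and 0.094 in APP/E3 males.

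For genes of the disease model and for all reactive astrocyte genes except Lcn2, the HFD and ND values overlapped. App, which includes reads of the mouse gene and possibly of the transgene, was at 4431 ± 249 CPM in HFD and 4160 ± 359 CPM in ND (SD), a log2 difference of 0.091 ± 0.093 (SE). Apoe was at 16.4 ± 3.35 CPM in HFD and 17.7 ± 3.19 CPM in ND, a log2 difference of -0.12 ± 0.12 (SE, and -0.22 without HFD male 3). By the labels mouse Apoe was replaced by human APOE4 in these mice, so the value is not a level of intact mouse Apoe. How these reads came to be counted for the mouse gene is not known. Gfap, the intermediate filament of reactive astrocytes, was at 180.3 ± 15.7 CPM in HFD and 188 ± 25.6 CPM in ND, and Serpina3n, a protease inhibitor of reactive astrocytes, at 83.3 ± 35 CPM in HFD and 94 ± 14.3 CPM in ND. Their log2 differences were -0.064 ± 0.23 (SE) and -0.18 ± 0.24 (SE), and -0.11 and -0.30 without HFD male 3. Of 26 reactive astrocyte genes, 15 were higher in HFD (median 0.046), against 11 (median -0.018) without HFD male 3. Lcn2 was the 1 gene of this list that separated the diets, as 0.316% of all genes did. Ggta1, a galactosyltransferase of the same list, differed by 0.37.

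Neuronal activity genes lay higher in HFD in most cases. Of 40 immediate early genes, 33 were higher, with a median log2 difference of 0.24 and 3 at an unadjusted p under 0.05 (7.50%, against 3.65% of all genes). Without HFD male 3 the figures were 31 of 40 and 0.21. With ND males 2, 3 and 6 left out as well they were 37 of 40 and 0.42. Fosb, an AP-1 transcription factor, was at 24.3, 31.6, 39.9, 30.6 and 31.4 CPM in HFD males 1 to 5 and from 11.4 to 33.7 CPM (median 18.6) in the ND males. The lowest HFD male exceeded 4 of the 6 ND males, and the log2 difference was 0.59 ± 0.25 (SE). Bdnf, a neurotrophin, ranged from 33.6 to 60.1 CPM in HFD and 20.2 to 40.2 CPM in ND, a log2 difference of 0.54 ± 0.24 (SE). Klf4 differed by 0.59 (0.28 without HFD male 3) and Egr1, the most abundant member, by 0.33 ± 0.28 (SE). Among synaptic genes 28 of 35 were higher (median 0.080), led by Rims1, an active zone scaffold, at 0.43, and Camk2a, a kinase of excitatory synapses, differed by 0.29 ± 0.15 (SE), and by 0.16 without HFD male 3.

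Genes of energy metabolism lay lower in HFD, by little. Of 69 nuclear-encoded subunits of oxidative phosphorylation, 2 were higher and 67 lower, with a median log2 difference of -0.11 and none called. At an unadjusted p under 0.05, 4 were lower (5.80%, against 3.65% of all genes in either direction and 1.90% in this direction). Ndufa1, a complex I subunit, was at 36.8, 35.5, 36.3, 33.8 and 35.5 CPM in HFD males 1 to 5 and from 37.3 to 52 CPM (median 39.8) in the ND males, and was the 1 member of 69 whose groups did not overlap (0.316% of all genes). Ndufa2, another complex I subunit, differed by -0.28 ± 0.10 (SE) and Atp5b, the catalytic beta subunit of ATP synthase, by -0.14 ± 0.066 (SE). ND male 6 had the highest summed level of the list, 9844 CPM against 7429 to 8227 CPM in the other 10 libraries. The median was -0.028 without ND male 6 and -0.024 without HFD male 3 and ND male 6. It was -0.25 among the 5 males whose sample titles carry a letter for sex and -0.041 among the 6 whose titles do not. HFD male 3 and ND male 6 are both among those 5, so this split is not separate from leaving out ND male 6.

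In lipid metabolism the lists differed in direction, and none of their genes was called. In cholesterol synthesis 15 of 28 were higher (median 0.019, and -0.015 without HFD male 3). In fatty acid synthesis and lipid handling 15 of 40 were higher (median -0.041). In fatty acid oxidation 13 of 39 were higher (median -0.065, and -0.11 without HFD male 3), with 1 higher and 3 lower at an unadjusted p under 0.05 (10.3%, against 3.65% of all genes). Sc5d and Hsd17b7, enzymes of late cholesterol synthesis, differed by 0.20 ± 0.089 (SE) and 0.22 ± 0.11 (SE). Pdk4, a kinase that limits the use of glucose by mitochondria, ranged from 15.7 to 27.9 CPM in HFD and 12.3 to 23.5 CPM in ND, a log2 difference of 0.38 ± 0.16 (SE). Etfdh, which passes electrons from fatty acid oxidation to the respiratory chain, and Mlycd, which removes malonyl-CoA, differed by -0.17 and -0.21. In insulin and IGF signalling 28 of 41 were higher (median 0.032, and 0.067 without HFD male 3 or 0.0091 without ND male 6). The metallothionein gene Mt2 differed by -0.34, and the clock genes Bhlhe40 and Dbp by 0.51 and -0.32.

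Markers of other brain regions had some of their most extreme values in the libraries that stood apart. All 25 striatal genes were lower in HFD, with a median log2 difference of -0.52, none with an unadjusted p under 0.05. Without HFD male 3 a single gene of the list was higher and the median was -0.24. With ND males 2, 3 and 6 left out as well, 0 of 25 were higher and the median was -0.57. Gng7, a G-protein subunit of striatal neurons, was at 524, 379, 123, 242 and 363 CPM in HFD males 1 to 5 and from 331 to 655 CPM (median 428) in the ND males. HFD male 3 was below every other library and the groups overlapped, with a log2 difference of -0.46 that was -0.25 without that library. The receptor genes Gpr6 and Drd2 showed the same order, at 0.335 and 1.34 CPM in HFD male 3 and at least 3.42 and 12.9 CPM in the others. Their log2 differences were -0.83 and -0.52, and -0.54 and -0.22 without HFD male 3. With ND males 2, 3 and 6 left out as well, Gng7, Gpr6 and Drd2 differed by -0.46, -0.72 and -0.61. Among 20 olfactory genes 1 was higher (median -1.10). With HFD male 3 and ND males 2, 3 and 6 left out, 15 of 20 were higher and the median was 0.49. Their summed levels were 753 to 4127 CPM in HFD and 2386 to 5318 CPM in ND for striatal genes and 864 to 1136 CPM in HFD and 915 to 1626 CPM in ND for olfactory genes. The part of these tissues in the other results was not tested.

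Nmb, a neuropeptide gene of the olfactory list, was at 2.01, 1.21, 2.01, 1.14 and 2.77 CPM in HFD males 1 to 5 and from 1.13 to 11.1 CPM (median 3.39) in the ND males, high in ND males 2, 3 and 6. Its log2 difference of -1.37 became 0.38 when these 3 and HFD male 3 were left out. The GABA synthesis gene Gad1, at 469 ± 150.5 CPM in HFD and 639.7 ± 147 CPM in ND (SD), differed by -0.45 ± 0.27 (SE). Myelin genes were lower in 23 of 25 cases (median -0.13), with the oligodendrocyte connexin gene Gjb1 at -0.30 ± 0.27 (SE), and none had an unadjusted p under 0.05. Endothelial genes were higher in 22 of 29 cases (median 0.15), led by the junction gene Esam at 0.30 (0.17 without HFD male 3). The endothelial median was 0.062 without HFD male 3. Meox1, a homeobox gene of the mural and meningeal list, was at 0.922 ± 0.340 CPM in HFD and 1.42 ± 0.684 CPM in ND (SD), a log2 difference of -0.65 ± 0.36 (SE).

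**Figure D4:**
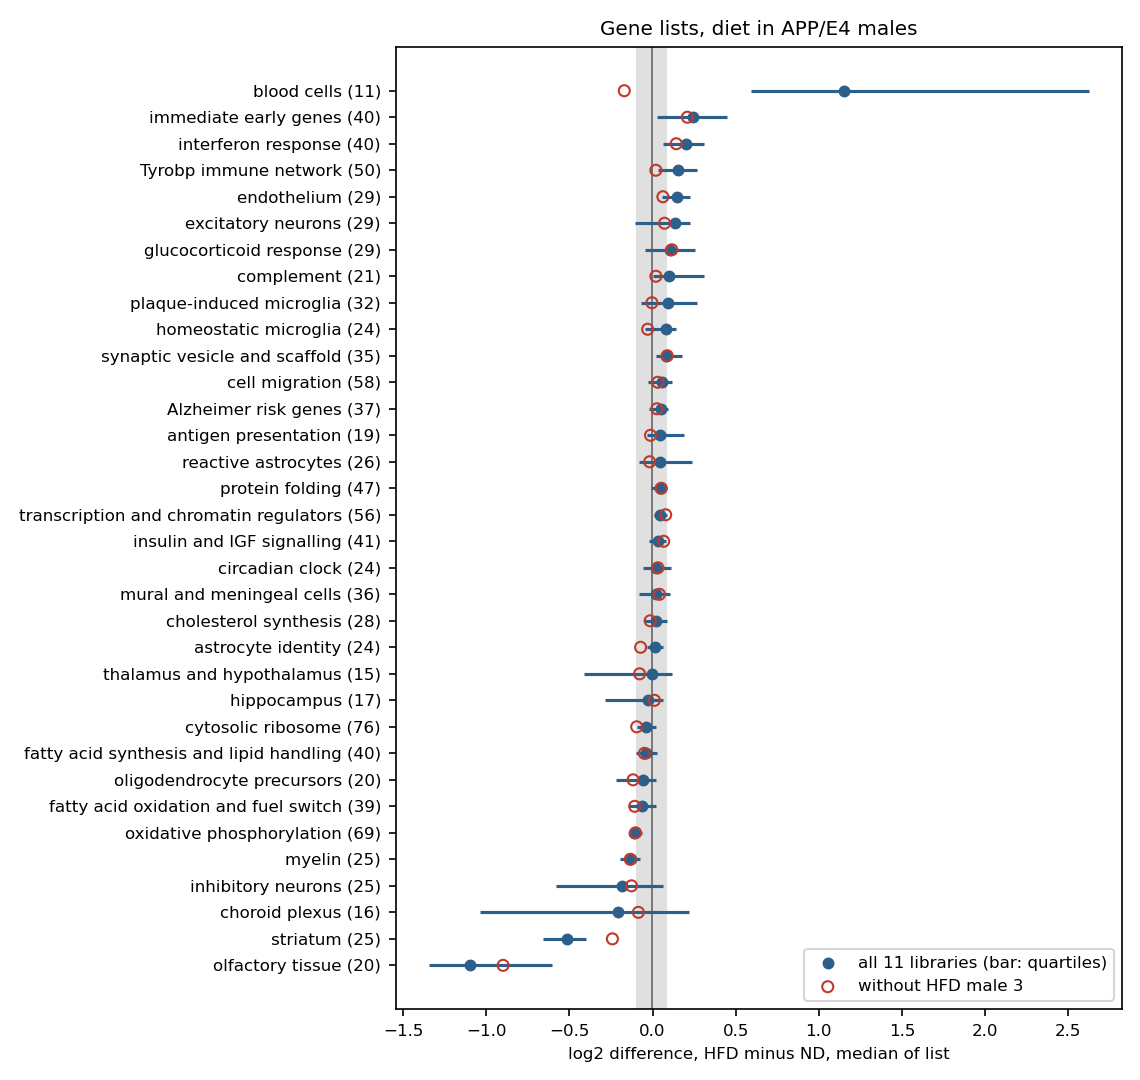
Median log2 difference between HFD and ND (x) for each of 34 gene lists, with the number of genes tested in brackets and a bar from the lower to the upper quartile. The grey band spans the quartiles of all 15195 genes, and red circles show the median without HFD male 3. Blood cell genes move from 1.15 to -0.17 when that library is left out, and the immediate early genes from 0.24 to 0.21.

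Whether the diet difference of APP/E4 males differed from that of other mice was tested as an interaction. For males against females within APP/E4, 0 of 15195 genes were called by edgeR (0%), with 585 at an unadjusted p under 0.05 (3.85%), 214 with the higher value in males (1.41%) and 371 with the lower (2.44%). Slc19a3, a thiamine transporter, had the smallest p, with log2 differences of -0.19 in males and 0.68 in females and a difference between them of -0.87 ± 0.21 (SE, edgeR, unadjusted p 1.54e-04, adjusted p 0.997). Srek1ip1 differed by -0.30 in males and 0.17 in females. Among genes with the higher value in males, Pip5k1a, a phosphoinositide kinase, differed by 0.11 in males and -0.22 in females. DESeq2 again called 1 gene, Alb, and limma voom none.

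For APP/E4 against APP/E3 males, 0 of 15195 genes were called by edgeR (0%), with 702 at an unadjusted p under 0.05 (4.62%), 441 with the higher value in APP/E4 (2.90%) and 261 with the lower (1.72%), and a smallest adjusted p of 0.850. Slc9b2 had the smallest p here as well, with 0.95 in APP/E4 and -0.32 in APP/E3 males and a difference of 1.27 ± 0.30 (SE, edgeR, unadjusted p 8.31e-05, adjusted p 0.850). This test uses the same APP/E4 males as the first comparison. Etnk2, an ethanolamine kinase of phospholipid synthesis, differed by 0.75 in APP/E4 and -0.61 in APP/E3 males, and Grhl1, a grainyhead-like transcription factor, by 0.29 and -0.63. In the other direction the histone methyltransferase gene Ehmt1 differed by -0.14 and 0.23. DESeq2 and limma voom called none in this contrast.

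Across the 11723 genes with a mean of at least 5 CPM, the log2 differences of APP/E4 males had a Pearson correlation of 0.117 (Spearman 0.137) with those of APP/E4 females and of -0.00025 (Spearman 0.0971) with those of APP/E3 males. These are correlations across genes, which are not independent replicates, and the sets of mice share no library. The log2 differences of leading genes in APP/E4 females put Slc9b2 at 0.096, Tusc1 at -0.40, Helz2 at 0.41 and Metrn at 0.12. The Tyrobp network was higher in HFD in 49 of 50 genes in APP/E4 females (median 0.24) and in 16 of 50 in APP/E3 males (median -0.064). Striatal genes were higher in 0 of 25 in APP/E4 females and in 25 of 25 in APP/E3 males. Differences between these medians were not tested.

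**Figure D5:**
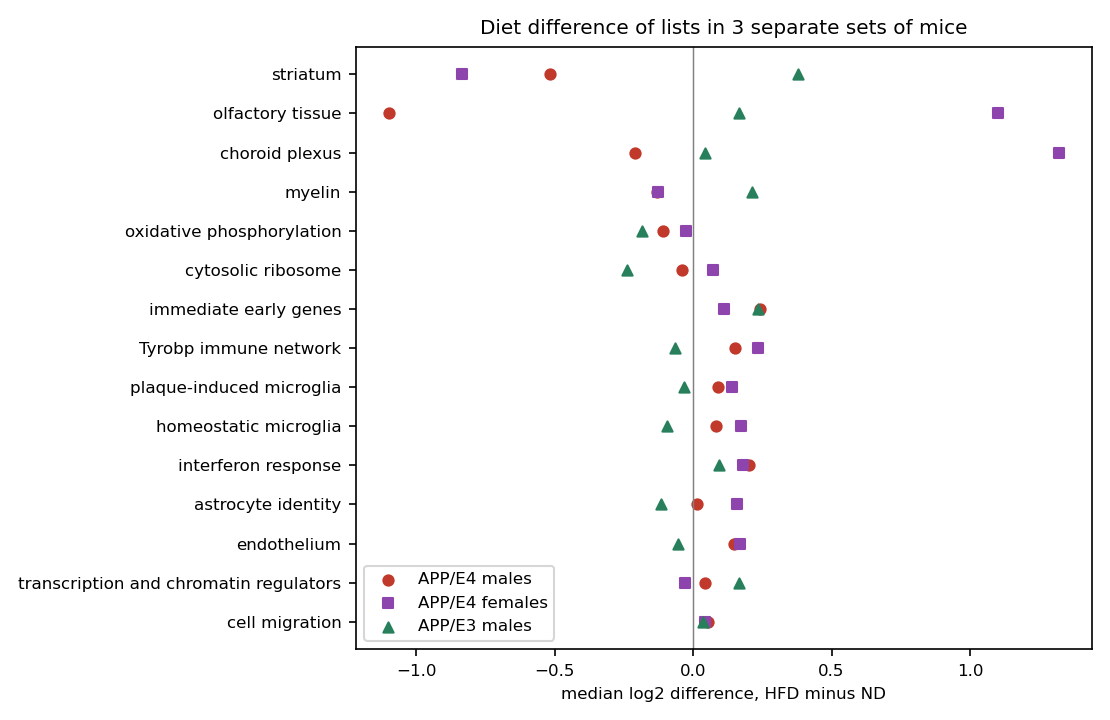
Median log2 difference between HFD and ND (x) of 15 gene lists in APP/E4 males (circles), APP/E4 females (squares) and APP/E3 males (triangles), which share no library. Striatal genes lie at -0.52, -0.83 and 0.38 in the 3 sets, and the Tyrobp network at 0.15, 0.24 and -0.064.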

How the data were processed

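The authors deposited a table of raw read counts per gene, which holds all 52 libraries and no column of any other sample. Its coefficient and p-value columns were not used. The submitters' processing notes name Subread, featureCounts, limma, edgeR 3.14.0 and the mouse build mm9. The gene annotation, strandedness and treatment of multi-mapping reads were not given in the sources used here. Counts are uncertain for genes that each have near-identical copies, such as Hba-a1 and Hbb-b1, for S100a family members, and for overlapping or antisense genes. Of 15692 genes, 24 had symbols turned into dates by a spreadsheet, and all 24 were restored by gene ID. A RefSeq table of GRCm38.p6 held 15448 of the IDs and was used for names only.

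Groups came from the labelled genotype, diet and gender. Replicate numbers follow deposit order. No 2 libraries of a group were duplicates, since over 25 pairs the lowest chi-square per gene between 2 libraries was 4.61 and the median 8.60. Genes were kept by filterByExpr over 8 groups, which left 15195. The deposited counts were scaled with TMM factors and fitted in edgeR 4.0.16 (R 4.3.3) with a robust quasi-likelihood model of 1 mean per group over all 52 libraries, which share 1 estimate of the spread. Benjamini-Hochberg adjustment covered all genes tested, and calls were made at 0.05. The code was tested on simulated counts. Principal components and flags of single libraries used TMM-scaled CPM. Alternatives included DESeq2 1.42.0 and limma 3.58.1 (voom), other scalings and filters, splits by whether the sample title carries a letter for sex, and leaving out libraries.

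Genes named were the 10 in each direction with the smallest p (none was called), the 3 members of each list with the smallest p and its most abundant member, the 5 in each direction with the largest log2 difference among genes whose groups do not overlap and whose mean is at least 5 CPM, the 5 in each direction with the smallest p in each interaction, and a fixed set with Apoe, App, Trem2, Tyrobp, Gfap, Serpina3n, Cst7, Btaf1, Meox1 and the sex check genes. Not every gene of the rule is printed. Alb, Ngp, Omp, Drd2, Hba-a1 and Hbb-b1 fall outside it and were chosen after their values were seen. The comparison, the gene lists and the rule were chosen with earlier results of these data known, so no list is independent evidence.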

Additional observations from a re-analysis of the deposited data

Results flagged for a closer look

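Within the 5 HFD or the 6 ND males, 24 of 240 sets of values had a library whose gap to its nearest neighbour exceeded Dixon's 95% critical value for the group's range (0.71 for 5 libraries and 0.625 for 6). Chance flags about 1 in 20 such sets, and the sets are not independent, since genes of 1 library share its RNA. Some of the genes, among them Ngp, Hba-a1 and Hbb-b1, were chosen after their values were seen. The number of flags therefore cannot be judged against that rate. HFD male 3 accounted for 13 of the 24 and ND male 6 for 7.

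HFD male 3 was highest of the HFD males in the neutrophil genes S100a8 at 11.6 CPM, with the next HFD male at 0.797, S100a9 at 16.6 CPM, with the next at 0.683, and Ngp at 8.71 CPM, with the next at 0.426. The same library was highest in the haemoglobin genes Hba-a1 at 22 CPM and Hbb-b1 at 16.2 CPM, with the next HFD male at 4.03 and 2.01 CPM. Among microglial genes it was highest in Ctss at 167, Csf1r at 192 and Tyrobp at 34.4 CPM. It was also highest in the presynaptic gene Rims3 at 45.6 CPM. Its summed levels stood out for the Tyrobp immune network at 1280, astrocyte identity at 13850, blood cells at 162 and glucocorticoid response at 1875 CPM, where the next HFD male was at 868, 11158, 70.002 and 1619 CPM.

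ND male 6 was highest of the ND males in Apoe at 23.7, Ndufa2 at 62.9, Ndufa1 at 52 and Atp5b at 1378 CPM. Its summed levels were highest for oxidative phosphorylation at 9844 CPM and the cytosolic ribosome at 3679 CPM, with the next ND male at 8227 and 2977 CPM. Its summed level was lowest for transcription and chromatin regulators, at 5214 CPM, with the next at 6410 CPM.

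The other 4 sets each rested on a single ND male. ND male 1 was lowest in Ppp1r3g at 5.36 CPM and highest in Gjb1 at 15.5 CPM. ND male 4 was highest in Gpr6 at 16.4 CPM, and ND male 5 in the summed choroid plexus markers at 375 CPM. No gene passed the adjusted threshold in either interaction, so no difference between sexes or genotypes is listed.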

How the results depend on the processing

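Under 25 alternatives the number of genes called for the diet in APP/E4 males was 0 or 1. DESeq2 called 1 gene there and 1 in the comparison with females, both times Alb, and leaving out 1 library at a time gave 0 to 1, the 1 being Slc9b2 without HFD male 1 (edgeR, log2 difference 1.12). For the comparison with APP/E3 males it was 0 under every alternative. The number of genes at an unadjusted p under 0.05, 555 with all libraries, was 1013 among males whose titles carry a sex letter, 315 among those without one, and 299 without HFD male 3 and ND male 6, and it ranged from 400 to 879 when 1 library was left out, with 879 without ND male 5 and 853 without HFD male 1. The title letter was carried by 3 of 5 HFD and 2 of 6 ND males, HFD male 3 and ND male 6 among them. What it stands for is not given in the labels. The 2 alternatives that leave out several libraries were chosen after seeing the data.

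Of 2074 log2 differences of the 84 genes under these alternatives, 2051 kept their direction and their side of the threshold, 22 turned to the other direction and 1 passed the threshold. When 1 library was left out, values ranged from -0.35 to 3.65 for S100a9, from -0.17 to 3.15 for Ngp, from -0.71 to 1.13 for Hba-a1, from -0.11 to 1.73 for Hbb-b1 and from -0.034 to 0.38 for Tyrobp, with each lowest value found without HFD male 3. Among males without a title letter the reversed log2 differences were -0.92 for S100a8, -1.50 for S100a9, -0.44 for Ngp, -0.047 for Hba-a1, -0.11 for Tyrobp, -0.026 for Itgb2 and -0.031 for Csf1r. Without HFD male 3 and ND male 6 they were -0.60 for S100a9, -0.41 for Ngp and -0.48 for Hba-a1. Without HFD male 3 and ND males 2, 3 and 6 they were -0.15 for Ngp, -0.71 for Hba-a1, -0.15 for Hbb-b1, -0.061 for Csf1r, 0.38 for Nmb and 1.89 for Omp. With limma voom Hba-a1 was at -0.27. Most of these settings leave out HFD male 3, which held the highest values of the blood and microglial genes, and beyond that the cause was not tested. Some genes kept their sign but differed in size between males with and without a title letter. The values were 1.03 and 0.46 for Slc9b2, 0.61 and 0.050 for Atxn7, 0.82 and 0.11 for Rims1, and -0.86 and -0.023 for Gad1. Ddx31 and Irf7 went the other way, at 0.17 and 0.61 and at 0.23 and 1.20. Of 35 list medians, 24 stayed within 1 SD of the replicates under every alternative. That SD came from the same 11 libraries, with HFD male 3 among them, so the count does not show that directions held. The Tyrobp network, plaque-induced and homeostatic microglial lists were among the 24. Their lowest medians were -0.033, -0.0068 and -0.053.

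No paired analysis was possible because the labels give no replicate numbers that the groups share. With 5 and 6 libraries and a median SE of 0.127, differences smaller than 0.255 on the log2 scale were within the unadjusted 95% interval of a typical gene. A call after adjustment needed a larger difference.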

Other observations

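Lists not described above gave these counts in APP/E4 males, with none of their genes called. Protein folding genes, such as chaperones, were higher in HFD in 32 of 47 cases (median log2 difference 0.043), and Alzheimer risk genes in 27 of 37 (median 0.053). Cytosolic ribosomal protein genes were higher in 26 of 76 (median -0.039), and many of them have near-identical pseudogene copies, so their counts are uncertain. Antigen presentation genes were higher in 11 of 19 (median 0.046) and complement genes in 15 of 21 (median 0.099). Without HFD male 3 the figures were 8 of 19 (median -0.012) for antigen presentation, 13 of 21 (median 0.020) for complement, 24 of 37 (median 0.026) for Alzheimer risk and 19 of 76 (median -0.096) for ribosomal protein genes. With ND males 2, 3 and 6 left out as well, 16 of 19 antigen presentation genes (median 0.15) and 17 of 21 complement genes (median 0.20) were higher. In that setting 20 of 37 Alzheimer risk genes (median 0.024) and 28 of 76 ribosomal protein genes (median -0.046) were higher.

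Of the astrocyte list, 15 of 24 had the higher value in HFD (median 0.014), against 5 of 24 (median -0.072) without HFD male 3. Excitatory neuron genes were higher in 18 of 29 (median 0.14, and 0.072 without HFD male 3) and inhibitory neuron genes in 9 of 25 (median -0.18). Oligodendrocyte precursor genes were higher in 6 of 20 (median -0.056, and -0.12 without HFD male 3). In choroid plexus 6 of 16, in hippocampus 7 of 17 and in thalamus and hypothalamus 7 of 15 genes were higher, with medians of -0.21, -0.028 and -0.0029, and of -0.085, 0.011 and -0.078 without HFD male 3. Circadian clock genes were higher in 15 of 24 (median 0.020, and 0.032 without it), glucocorticoid response genes in 18 of 29 (median 0.11) and mural and meningeal genes in 19 of 36 (median 0.019, and 0.041 without it). With HFD male 3 and ND males 2, 3 and 6 left out, 29 of 36 mural and meningeal genes were higher (median 0.54). In that setting 10 of 24 circadian clock genes were higher (median -0.055). The medians of the antigen presentation, astrocyte, ribosomal, hippocampal, thalamic and hypothalamic, and mural and meningeal lists turned sign when at least 1 of the 11 libraries was left out.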
